A study of Mus musculus with 12 samples.

Results

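Plasmin, the protease that dissolves fibrin, is made from plasminogen by urokinase (gene Plau) and by tissue plasminogen activator (Plat). Urokinase is held at the cell surface by its receptor (Plaur) and is blocked by inhibitors of the serpin family, among them plasminogen activator inhibitor type 2 (Serpinb2). Clotting starts when tissue factor (F3) meets factor VII, and thrombomodulin (Thbd) turns the thrombin that is formed towards activation of protein C, an anticoagulant. Fibrin is known to be deposited in inflamed joints. The list of regulators described here held 8 genes, the 6 above, Serpine2, which encodes a serpin of thrombin and plasminogen activators, and Serpina3n, which encodes an inhibitor of leukocyte serine proteases made in the acute phase. A gene was taken from the rows of the deposited table whose array annotation gave its symbol alone, with the highest mean over 12 arrays deciding between rows. By this rule 7 of the 8 genes were found, with 1 row each, among 19938 genes with such a row. Serpine2 was not analysed here.

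The samples were ankle joints of 12 C57BL/6 mice, described as male, with 3 mice in each of 4 groups and 1 array per mouse. Arthritic Mmp8-/- mice lacked matrix metalloproteinase 8, a collagenase of neutrophils, in all cells from the germline, and received 150 µl of pooled serum of arthritic K/BxN mice intraperitoneally on day 0 and on day 2. This serum carries antibodies that start joint inflammation in the recipient, and the ankles were taken on day 7. Arthritic Mmp8+/+ mice were wild type for the gene and received the same serum. The Mmp8-/- control and Mmp8+/+ control mice had no arthritis, and no mock injection is described for them. No age was given in the labels. RNA was hybridised to Mouse Gene 1.0 ST arrays, and values are log2 signals, so that a difference of 1 is a doubling of signal. The whole ankle was pulverised, so the RNA comes from all its tissues. Genes of the synovium, bone and cartilage were well detected, with means over the 12 arrays of 13.25 for Prg4, 13.93 for Col1a1 and 9.52 for Col2a1. Because these are bulk samples, fewer cells of a type and less RNA per cell cannot be told apart in any value below.

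Of the 6 control arrays, 3 did not match what was stated about their mice. Mmp8 itself read 4.64 to 5.54 on the 3 arthritic Mmp8-/- arrays and 10.21 to 10.69 on the 3 arthritic Mmp8+/+ arrays. It read 4.82 and 5.05 on replicates 1 and 3 labelled Mmp8-/- control but 10.65 on replicate 2, against 10.30 to 11.16 on the Mmp8+/+ control arrays. The female RNA Xist, made from the inactive X chromosome, was at 10.92 on replicate 1 labelled Mmp8-/- control and 10.42 on Mmp8+/+ control replicate 1, and 4.66 to 5.41 on the other 10 arrays. The Y-linked gene Eif2s3y was low on these same 2 arrays, at 4.16 and 4.02, against 7.94 to 9.27 elsewhere. Comparisons of the 7 genes with controls are therefore given with these arrays and, where the call changes, without them, and the group is called the mice labelled Mmp8-/- control. The smallest groups left are then 1 array labelled Mmp8-/- control and 2 Mmp8+/+ control arrays, and a lone array is assumed to vary like the other groups.

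With serum arthritis some of the 7 genes were higher and others lower. Plau was higher and Serpinb2 and Thbd were lower in arthritic than in control ankles of both genotypes, each by about a doubling or halving of signal. Serpina3n rose in Mmp8+/+ mice, and averaged over genotypes Plaur rose and F3 fell as well. Differences were tested with limma at a false discovery rate (FDR) of 5% over 18479 array features with a gene symbol and a mean log2 signal of at least 5.3, and all 7 genes were among those tested. In Mmp8-/- mice 3 of the 7 passed, 1 higher and 2 lower, against 21.6% of all features tested, 7.92% being higher and 13.7% lower. In Mmp8+/+ mice 4 of the 7 passed, 2 higher and 2 lower, against 18.9% of features, of which 7.2% were higher and 11.7% lower. In the average over genotypes, 6 of the 7 passed, 3 in each direction, against 42.1% of features, 19.5% higher and 22.7% lower. Without the 2 arrays with Xist signal, 3 of the 7 passed in Mmp8-/- mice, 3 in Mmp8+/+ mice and 4 on average, against 9.34%, 10.5% and 26.1% of all features. Without all 3 doubtful arrays 1, 3 and 4 passed, against 2.62%, 9.28% and 14.6% of features. The median size of the log2 fold change of the 7 genes was 0.86 in Mmp8-/- and 0.98 in Mmp8+/+ mice, against 0.32 and 0.29 for all features tested in those genotypes. The genes were chosen with earlier results of these data known, so their standing against all features is descriptive and tests nothing about them as a set. The 6 arthritic and the 6 control arrays did not overlap for 4 of the 7 genes, Plau, Plaur, Serpinb2 and Thbd, whereas 19.6% of all features were so separated.

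**Figure D1:**
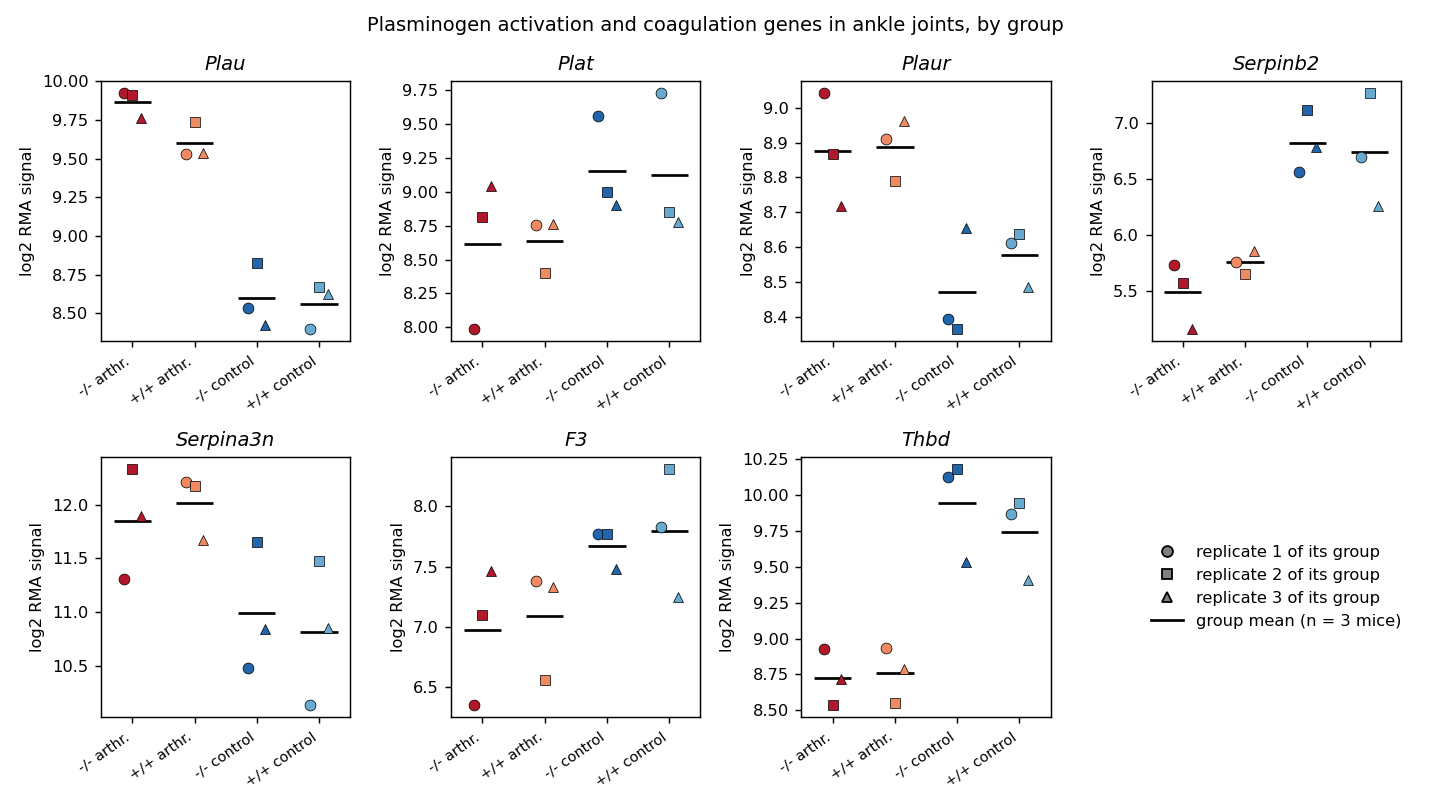
Log2 RMA signal of the 7 genes on each array. Columns are arthritic Mmp8-/-, arthritic Mmp8+/+, labelled Mmp8-/- control and Mmp8+/+ control mice, symbols are the 3 replicates of a group, and lines are group means; axes differ between panels and do not start at 0. The arthritic arrays lie above all control arrays for Plau and Plaur and below all of them for Serpinb2 and Thbd.

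Promoter sequence from RefSeq, build GRCm38.p6, was held for 4 of the 7 genes, Plaur, Serpina3n, Serpinb2 and F3. The 250 bases before a transcription start are shown for 3 of them, since Plaur rose and Serpinb2 and F3 fell while sharing a motif. All are on the plus strand, and the window of Serpinb2 is 1 of 2 overlapping ones. The windows of Plaur and Serpinb2 lie inside the gene spans given below, so their starts are internal ones. The window of F3 ends directly before its gene. Capitals mark matches, on either strand, to motifs of factors active in inflammation and of basal promoters. These were AP-1 (TGANTCA), NF-kappaB, C/EBP (TTGCNNAA), STAT (TTCNNNGAA), the GC box (GGGCGG) and the TATA box (TATAAA).
Plaur, chr7:24462233-24462482: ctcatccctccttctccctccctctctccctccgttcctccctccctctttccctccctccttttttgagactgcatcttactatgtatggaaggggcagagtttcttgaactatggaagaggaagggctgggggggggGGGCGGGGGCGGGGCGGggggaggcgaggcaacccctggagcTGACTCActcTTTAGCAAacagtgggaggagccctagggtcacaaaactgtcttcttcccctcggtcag
Serpinb2, chr1:107511173-107511422: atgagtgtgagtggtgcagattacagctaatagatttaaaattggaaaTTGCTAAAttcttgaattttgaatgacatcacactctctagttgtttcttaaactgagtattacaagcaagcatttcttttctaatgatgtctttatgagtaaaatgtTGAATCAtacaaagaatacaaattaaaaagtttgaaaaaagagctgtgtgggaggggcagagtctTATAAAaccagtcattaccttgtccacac
F3, chr3:121723287-121723536: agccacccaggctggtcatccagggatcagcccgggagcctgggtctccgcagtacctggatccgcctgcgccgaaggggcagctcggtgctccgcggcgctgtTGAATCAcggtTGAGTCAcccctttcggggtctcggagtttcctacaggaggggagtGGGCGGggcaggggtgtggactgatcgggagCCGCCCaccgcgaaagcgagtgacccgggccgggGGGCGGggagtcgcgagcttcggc

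The AP-1 letters stood in the windows of these 3 genes and not in that of Serpina3n, which held no match to any of the motifs. F3 held 2 AP-1 matches, TGAATCA and TGAGTCA, from 146 to 140 and from 135 to 129 bases before the start. The match in Plaur was TGACTCA, from 69 to 63 bases before the start, and that in Serpinb2 was TGAATCA, from 94 to 88. Among 32851 windows of the same length, 6.75% held an AP-1 match. The NF-kappaB motif, in 7.25% of all windows, was in none of the 4. Plaur and F3 each had 3 GC boxes, of which a pair in Plaur overlapped, held by 32.7% of windows, and Serpinb2 a TATA box from 29 to 24 bases before the start, held by 12.4%. A C/EBP match stood in Plaur and Serpinb2 (9.56% of windows), and a STAT match only in the second window of Serpinb2 (7.02% of windows). These matches describe letters, and binding was not measured. Promoters of Plau, Plat and Thbd were not used here.

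Among the activators, Plau showed the clearest separation. Urokinase is the activator made by macrophages, fibroblasts and other migrating cells, and its gene lies on chromosome 14, from 20836662 to 20843388 in the GRCm38 annotation. Plau read 9.92, 9.91 and 9.76 on the arthritic Mmp8-/- arrays and 9.53, 9.74 and 9.54 on the arthritic Mmp8+/+ arrays. The control arrays read 8.54, 8.83 and 8.43 in mice labelled Mmp8-/- and 8.40, 8.67 and 8.63 in Mmp8+/+ mice. The lowest arthritic value, 9.53, was above the highest control value, 8.83, and the order of the group means was arthritic Mmp8-/-, arthritic Mmp8+/+, labelled Mmp8-/- control and Mmp8+/+ control, the last pair not differing beyond their spread. Arthritic over control, the log2 fold change was 1.27 in Mmp8-/- mice (SE 0.15, 2.41-fold, limma adjusted p = 8.005e-05) and 1.04 in Mmp8+/+ mice (SE 0.15, 2.05-fold, adjusted p = 0.000368). Averaged over genotypes it was 1.15 (SE 0.11, adjusted p = 2.49e-06), larger than for 99.2% of the features tested. Without the 3 arrays that did not match their descriptions it was 1.20 (adjusted p = 0.000176), and Plau passed the threshold in both genotypes under each of the 22 alternative settings tried.

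The same rise was not seen for the second activator. Plat encodes tissue plasminogen activator, the protease that activates plasminogen on blood clots, released by endothelium, and lies on chromosome 8 (22757722 to 22782848). Plat read 7.98, 8.81 and 9.05 on the arthritic Mmp8-/- arrays and 8.76, 8.40 and 8.76 on the arthritic Mmp8+/+ arrays. On control arrays it read 9.56, 9.001 and 8.91 in mice labelled Mmp8-/- and 9.73, 8.85 and 8.78 in Mmp8+/+ mice. The highest 2 values were those of the 2 control arrays with Xist signal, and the 6 arthritic and 6 control arrays overlapped. The log2 fold change was -0.54 in Mmp8-/- mice (SE 0.29, limma adjusted p = 0.187) and -0.48 in Mmp8+/+ mice (SE 0.29, adjusted p = 0.257), and -0.51 on average (95% interval -0.95 to -0.07, adjusted p = 0.0595). With all 12 arrays Plat thus did not pass in any comparison, and without the 2 arrays with Xist signal its average was -0.26 (adjusted p = 0.320). Within genotypes the difference shrank without Mmp8+/+ control replicate 1 (-0.18 in Mmp8+/+ mice, adjusted p = 0.723), arthritic Mmp8-/- replicate 1 (-0.23 in Mmp8-/- mice, adjusted p = 0.622) or replicate 1 labelled Mmp8-/- control (-0.34, adjusted p = 0.499). The average did pass without Mmp8+/+ control replicate 3 (-0.60, adjusted p = 0.0404) or without arthritic Mmp8-/- replicate 3 (-0.62, adjusted p = 0.0304). Whether the 2 activators differed in their response was not tested.

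Plaur, on chromosome 7 (24460937 to 24475970), encodes the lipid-anchored receptor that concentrates urokinase on leukocytes and other cells, and its window above held an AP-1 match. It read 9.04, 8.87 and 8.72 on the arthritic Mmp8-/- arrays and 8.91, 8.79 and 8.96 on the arthritic Mmp8+/+ arrays. Control values were 8.39, 8.36 and 8.65 in mice labelled Mmp8-/- and 8.61, 8.64 and 8.49 in Mmp8+/+ mice. All arthritic values lay above all control values, by a narrow margin of 8.72 against 8.65 between the nearest pair. The difference was small, at 0.41 in Mmp8-/- mice (SE 0.15, 1.33-fold, limma adjusted p = 0.0608) and 0.31 in Mmp8+/+ mice (SE 0.15, 1.24-fold, adjusted p = 0.153), and neither passed alone. The average over genotypes was 0.36 (SE 0.10, adjusted p = 0.0143) and passed. That call was lost without the 2 arrays with Xist signal (0.35, adjusted p = 0.0621) and without all 3 doubtful arrays (0.27, adjusted p = 0.236). In Mmp8-/- mice Plaur passed when arthritic replicate 3 was left out (0.49, adjusted p = 0.0440). The 12 values of Plaur had the smallest spread within groups of the 7 genes, with a pooled SD of 0.13, against 0.15 for Plau and 0.54 for Serpina3n.

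**Figure D2:**
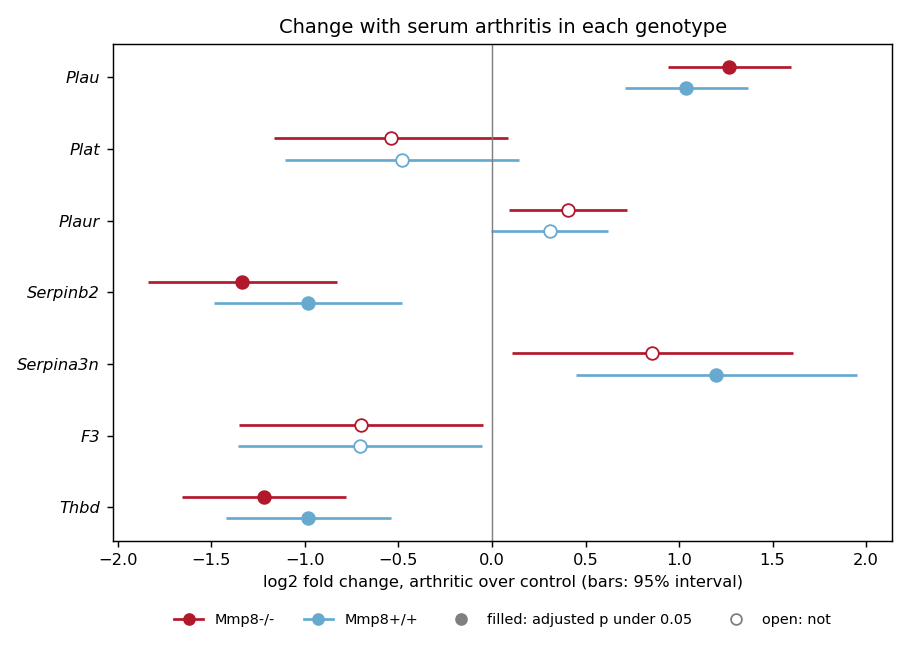
Log2 fold change of each gene, arthritic over control, in Mmp8-/- (red) and Mmp8+/+ (blue) mice, with the 95% interval of the limma fit as bars; filled points passed the FDR of 5%. Plau, Serpinb2 and Thbd are filled in both genotypes and Serpina3n in Mmp8+/+ mice, and the intervals of the 2 genotypes overlap for every gene.

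The inhibitors of the list moved in opposite directions. Serpinb2 encodes plasminogen activator inhibitor type 2, which inactivates urokinase and is also abundant inside macrophages and keratinocytes, and it lies on chromosome 1 (107500892 to 107525600). It read 5.73, 5.57 and 5.16 on the arthritic Mmp8-/- arrays and 5.76, 5.65 and 5.86 on the arthritic Mmp8+/+ arrays. Control arrays read 6.57, 7.11 and 6.79 in mice labelled Mmp8-/- and 6.70, 7.27 and 6.26 in Mmp8+/+ mice. Every arthritic value was below every control value, and the arthritic values were close to the 5.3 that a feature needed on average to be tested. The log2 fold change was -1.33 in Mmp8-/- mice (SE 0.24, limma adjusted p = 0.00151) and -0.98 in Mmp8+/+ mice (SE 0.24, adjusted p = 0.01002), and on average -1.16 (SE 0.17, adjusted p = 0.000115). Without the 3 doubtful arrays the average still passed (-1.15, adjusted p = 0.00459), whereas the difference in Mmp8-/- mice did not (-1.30, adjusted p = 0.0807), with 1 control array left in that genotype. Serpinb2 fell while Plau, whose product it inhibits, rose, in both genotypes.

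Serpina3n, on chromosome 12 (104406646 to 104414334), had high signals and the widest spread. It read 11.31, 12.34 and 11.89 on the arthritic Mmp8-/- arrays and 12.21, 12.17 and 11.67 on the arthritic Mmp8+/+ arrays. Controls read 10.47, 11.65 and 10.84 in mice labelled Mmp8-/- and 10.13, 11.48 and 10.85 in Mmp8+/+ mice. The groups were separate within Mmp8+/+ mice, but in Mmp8-/- mice the lowest arthritic value, 11.31, was below the control value of 11.65. That control value belonged to replicate 2 labelled Mmp8-/- control, which carried Mmp8 signal, and the lowest control values, 10.13 and 10.47, were those of the 2 arrays with Xist signal. Arthritic over control, the log2 fold change was 0.86 in Mmp8-/- mice (SE 0.35, limma adjusted p = 0.0916) and 1.20 in Mmp8+/+ mice (SE 0.35, 2.30-fold, adjusted p = 0.0286). The average was 1.03 (SE 0.25, 2.04-fold, adjusted p = 0.00515), and it passed without the 2 arrays with Xist signal (0.73, adjusted p = 0.0344) and without all 3 (0.93, adjusted p = 0.0229).

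The calls of Serpina3n within a genotype depended on single arrays. In Mmp8+/+ mice the call was lost without control replicate 1 (0.86, limma adjusted p = 0.134), control replicate 3 (1.21, adjusted p = 0.0534), arthritic replicate 1 (1.10, adjusted p = 0.0963) or arthritic replicate 2 (1.12, adjusted p = 0.0852), and without both arrays with Xist signal (0.86, adjusted p = 0.119). In Mmp8-/- mice Serpina3n passed once replicate 2 labelled Mmp8-/- control was left out (1.19, adjusted p = 0.0423). The rise averaged over genotypes had no such dependence on a single array, with a range of 0.86 to 1.19 over the 12 arrays left out in turn.

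Of the coagulation regulators, both lay lower in arthritic ankles. Thbd encodes thrombomodulin, the thrombin receptor of endothelium, and lies on chromosome 2 (148404471 to 148408188). It read 8.92, 8.54 and 8.72 on the arthritic Mmp8-/- arrays and 8.94, 8.55 and 8.79 on the arthritic Mmp8+/+ arrays. Control arrays read 10.12, 10.18 and 9.53 in mice labelled Mmp8-/- and 9.87, 9.95 and 9.40 in Mmp8+/+ mice. The highest arthritic value, 8.94, was below the lowest control value, 9.40, and within each condition the genotypes did not differ beyond their spread. The log2 fold change was -1.22 in Mmp8-/- mice (SE 0.21, limma adjusted p = 0.00108) and -0.98 in Mmp8+/+ mice (SE 0.21, adjusted p = 0.00447). On average it was -1.10 (SE 0.15, adjusted p = 5.68e-05), with 3.65% of the features tested lower still. Without the 3 doubtful arrays the average was -0.86 (adjusted p = 0.00692), and the change in Mmp8-/- mice, -0.80, did not pass (adjusted p = 0.187), with 1 control array left in that genotype.

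F3, on chromosome 3 (121723537 to 121735052), encodes tissue factor, the membrane receptor that starts coagulation outside the vessel. It read 6.35, 7.10 and 7.46 on the arthritic Mmp8-/- arrays and 7.38, 6.56 and 7.33 on the arthritic Mmp8+/+ arrays. Controls read 7.77, 7.77 and 7.48 in mice labelled Mmp8-/- and 7.82, 8.31 and 7.25 in Mmp8+/+ mice. In Mmp8-/- mice the groups just failed to touch, at 7.46 against 7.48, and in Mmp8+/+ mice they overlapped. The log2 fold change was -0.70 in each genotype (SE 0.31, limma adjusted p = 0.110 in Mmp8-/- and 0.120 in Mmp8+/+ mice) and did not pass. The average, -0.70 (SE 0.22, adjusted p = 0.0188), passed. It was lost without Mmp8+/+ control replicate 2 (-0.57, adjusted p = 0.0504), without the 2 arrays with Xist signal (-0.67, adjusted p = 0.0713) and without the 3 doubtful arrays (-0.60, adjusted p = 0.193). Within genotypes F3 passed without Mmp8+/+ control replicate 3 (-0.98, adjusted p = 0.0435) and without arthritic Mmp8-/- replicate 3 (-0.94, adjusted p = 0.04999). The differences were smaller without Mmp8+/+ control replicate 2 (-0.44, adjusted p = 0.378) or arthritic Mmp8+/+ replicate 2 (-0.44, adjusted p = 0.375), and without arthritic Mmp8-/- replicate 1 (-0.39, adjusted p = 0.410). Within single genotypes, 5 of the 7 genes were separated between arthritic and control arrays in Mmp8-/- mice and 6 of the 7 in Mmp8+/+ mice, against 39.3% and 40.9% of all features.

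**Figure D3:**
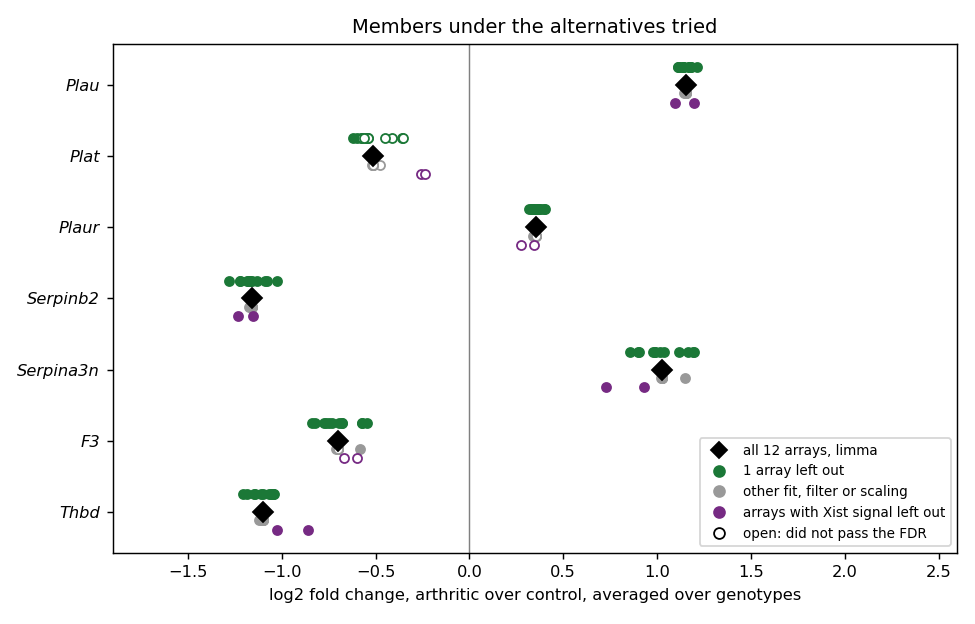
Log2 fold change of each gene, arthritic over control and averaged over genotypes, under each setting tried. Diamonds show the fit of all 12 arrays, green points leave out 1 array, grey points use another fit, filter or scaling, purple points leave out the arrays with Xist signal with or without the third doubtful array, and open points did not pass the FDR of 5%, or of 1% for the setting with that threshold. No point crosses 0, and open points occur for Plat, Plaur and F3.

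No gene of the list passed the threshold between genotypes. In arthritic ankles 0 of the 7 passed, against 0.00541% of all features (1 of 18479). An unadjusted limma p under 0.05 was reached by 0 of the 7 genes and by 523 of the 18479 features. Plau came closest, with a log2 signal 0.26 higher in arthritic Mmp8-/- mice, against arthritic Mmp8+/+ mice (95% interval -0.06 to 0.59, unadjusted p = 0.107 and adjusted p = 0.9997 from the limma fit). The 3 arthritic Mmp8-/- values of Plau lay above the 3 arthritic Mmp8+/+ values, at 9.76 or more against 9.74 or less, and Plau was the 1 gene of the 7 for which these groups did not overlap, as were 6.18% of all features. The other differences between arthritic Mmp8-/- and arthritic Mmp8+/+ mice were -0.27 for Serpinb2 (95% interval -0.77 to 0.23), -0.17 for Serpina3n (-0.92 to 0.58) and -0.12 for F3 (-0.77 to 0.53). They were -0.03 for Thbd (-0.47 to 0.41), -0.03 for Plat (-0.65 to 0.60) and -0.01 for Plaur (-0.32 to 0.30). For each gene but Plau, the difference between genotypes was smaller than the pooled SD within groups, which was 0.13 to 0.54, in arthritic as in control mice. The 1 feature that passed between the arthritic groups was a keratinocyte marker, lower in Mmp8-/- mice, and Mmp8 itself did not pass. Mmp8 had means of 4.95 in arthritic Mmp8-/- and 10.49 in arthritic Mmp8+/+ mice, but an SD of 3.30 in mice labelled Mmp8-/- control. The fit shares 1 estimate of spread over the 4 groups, so doubtful control arrays enter this comparison too. A lack of calls therefore does not show equal levels.

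In mice without arthritis, 0 of the 7 genes and 0% of all features passed between mice labelled Mmp8-/- and Mmp8+/+ mice. The differences ran from -0.12 for F3 to 0.21 for Thbd. An unadjusted limma p under 0.05 was reached by 0 of the 7 genes and by 596 of the 18479 features. The change with arthritis was also compared between genotypes, as an interaction, and again 0 of the 7 genes and 0% of features passed, with 576 features at an unadjusted p under 0.05 and none of the 7 genes among them. The interaction was -0.35 for Serpinb2 (95% interval -1.06 to 0.36), -0.34 for Serpina3n (-1.41 to 0.72) and 0.23 for Plau (-0.23 to 0.69). It was 0.00 for F3, with an interval of -0.92 to 0.93. Serpina3n, which passed in Mmp8+/+ mice alone, was thus not shown to respond differently in the 2 genotypes.

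Other genes of plasminogen activation and coagulation were taken from 4 lists. Of 18 further genes of plasminogen activation that were tested (25 listed), 3 rose in Mmp8-/- mice and 3 rose and 1 fell in Mmp8+/+ mice, with median log2 fold changes of 0.13 and 0.11, against -0.01 and 0.01 for all features. These counts were close to the 21.6% and 18.9% of all features that passed in the 2 genotypes. Averaged over genotypes 8 rose and 2 fell, against 42.1% of features. The largest rise was that of Masp1, a protease of the complement lectin pathway that also acts on clotting factors, at 1.30 in Mmp8-/- and 1.69 in Mmp8+/+ mice (SE 0.26, limma adjusted p = 0.00321 and 0.000463). Igf2r, a receptor for mannose 6-phosphate that also binds plasminogen, rose by 0.52 and 0.58. Plg, the gene of plasminogen, is made mainly in liver, and its signals here were near the lower limit of the tested features, at 5.77 to 6.25 on the arthritic Mmp8-/- arrays and 5.52 to 6.28 on the arthritic Mmp8+/+ arrays. The control arrays read 5.24 to 5.68 in mice labelled Mmp8-/- and 5.13 to 5.46 in Mmp8+/+ mice. The differences of 0.52 and 0.50 in Plg did not pass within either genotype (adjusted p = 0.0834 and 0.103). The average of Plg, 0.51, passed (adjusted p = 0.0131), but not without the 2 arrays with Xist signal (0.47, adjusted p = 0.0574) or without the 3 doubtful arrays (0.42, adjusted p = 0.175). Without the 2 arrays with Xist signal 1 of the 18 plasminogen genes passed in Mmp8-/- mice, 2 in Mmp8+/+ mice and 3 on average. Of all features 9.34%, 10.5% and 26.1% passed in that setting, so calls fell over the whole array. The calls of Masp1 and Igf2r in Mmp8-/- mice, from the fit of all arrays, thus did not both hold in that setting. Fewer of these genes passed in Mmp8-/- mice and on average without all 3 doubtful arrays, which leaves 1 array labelled Mmp8-/- control. Neither the call of Masp1 nor that of Igf2r in Mmp8-/- mice held then. A lone control array cannot decide whether these genes changed in that genotype.

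Among 18 procoagulant factors and receptors tested (23 listed), 2 rose and 5 fell in Mmp8-/- mice, and 4 rose and 3 fell in Mmp8+/+ mice, with medians of 0.09 and 0.02. Of all features 21.6% and 18.9% passed in these genotypes. Without the 2 arrays with Xist signal 6 passed in each genotype, against 9.34% and 10.5% of all features. Fewer passed without all 3 doubtful arrays, which leaves 1 array labelled Mmp8-/- control. The calls of F7, F8, F5 and F13a1 given next are from the fit of all arrays. In Mmp8-/- mice those of F7 and of others among them did not hold without all 3 doubtful arrays. A lone control array cannot decide whether these genes changed in that genotype. F7, whose product is the partner of tissue factor, rose by 1.07 in Mmp8-/- and 1.08 in Mmp8+/+ mice (SE 0.23, limma adjusted p = 0.00646 and 0.00558). Its control means, 5.56 in mice labelled Mmp8-/- and 5.43 in Mmp8+/+ mice, were close to the lower limit of the tested features. Averaged over genotypes F7 was higher and F3 lower. Without the 2 arrays with Xist signal F3 was still lower (-0.67), but its call was lost (limma adjusted p = 0.0713). The call of F3 in this pair, though not its direction, thus rests on these arrays. The cofactor genes F8 and F5 fell, with log2 fold changes for F8 of -1.61 in Mmp8-/- and -1.86 in Mmp8+/+ mice (SE 0.16, adjusted p = 2.25e-05 and 5.428e-06) and for F5 of -0.84 and -1.62. F13a1, which encodes the fibrin crosslinking factor found in macrophages and platelets, fell in both, with values of -0.88 in Mmp8-/- and -0.73 in Mmp8+/+ mice.

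Of 16 anticoagulant genes tested (18 listed), 3 rose and 4 fell in Mmp8-/- mice and 4 rose and 4 fell in Mmp8+/+ mice, with medians of 0.12 and 0.34. The shares of all features that passed were 21.6% and 18.9%. Without the 2 arrays with Xist signal 5 passed in each genotype, against 9.34% and 10.5% of all features. Fewer passed without all 3 doubtful arrays, which leaves 1 array labelled Mmp8-/- control. The calls of single anticoagulant genes given next are from the fit of all arrays. In Mmp8-/- mice not all of the falls among them held without all 3 doubtful arrays. Tfpi, the inhibitor of the complex of tissue factor and factor VII, fell, with log2 fold changes of -1.06 in Mmp8-/- and -1.04 in Mmp8+/+ mice (SE 0.25, limma adjusted p = 0.0105 and 0.0112). Its relative Tfpi2, which inhibits plasmin, rose by 1.82 and 1.97 (SE 0.20, adjusted p = 4.789e-05 and 2.391e-05). Ptgis, the prostacyclin synthase of vessel walls, fell as well (-1.21 in Mmp8-/- and -1.34 in Mmp8+/+ mice). A2m, a broad protease trap, had the largest falls of the list (-2.09 and -2.26), with control values that varied by an SD of 1.30 in mice labelled Mmp8-/- and 1.20 in Mmp8+/+ mice. Procr, the endothelial receptor that presents protein C to the complex of thrombin and thrombomodulin, was lower like Thbd, at -1.03 in Mmp8-/- and -0.73 in Mmp8+/+ mice (adjusted p = 0.000323 and 0.00380), and was chosen for mention after its values were seen. Of 13 other serpins tested (39 listed), 3 fell in Mmp8-/- mice and 1 rose and 1 fell in Mmp8+/+ mice, with medians of -0.24 and -0.16. These counts were close to the 21.6% and 18.9% of all features. Without the 2 arrays with Xist signal 1 of these serpins passed in Mmp8-/- and 2 in Mmp8+/+ mice, against 9.34% and 10.5% of all features. Serpinb10, a relative of Serpinb2 expressed in marrow cells, had log2 fold changes of -2.32 and -2.68 (SE 0.38, adjusted p = 0.000829 and 0.000251).

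**Figure D4:**
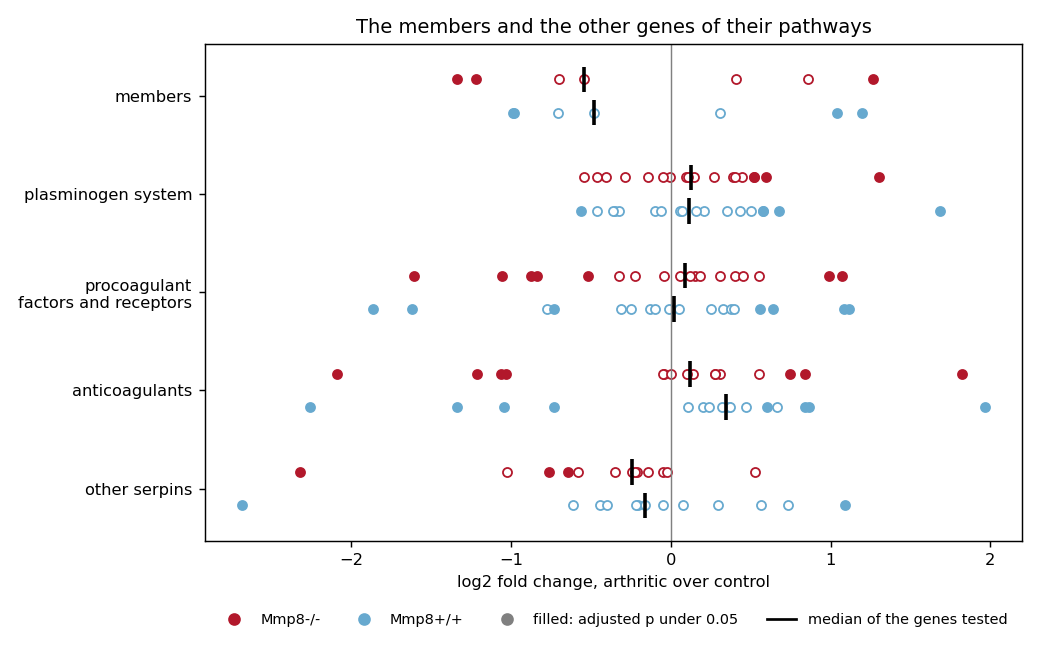
Log2 fold change, arthritic over control, of the 7 genes and of the tested genes of each list, in Mmp8-/- (upper row, red) and Mmp8+/+ mice (lower row, blue); filled points passed the FDR of 5% and black bars are medians. Each list holds points on both sides of 0, and the medians of the 4 lists lie between -0.24 and 0.34.

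The levels of markers of cell types that make these proteins are given here, to be read beside the 21.6% of all features that passed in Mmp8-/- and the 18.9% in Mmp8+/+ mice. Marker counts in this paragraph and the next are from all 12 arrays and were not repeated without the 3 doubtful arrays. The mean of 15 macrophage and monocyte markers was 9.40 to 9.75 on the arthritic Mmp8-/- arrays and 9.49 to 9.71 on the arthritic Mmp8+/+ arrays, against 9.28 to 9.42 in mice labelled Mmp8-/- control and 9.24 to 9.38 in Mmp8+/+ controls. Of these markers 5 rose and 2 fell in Mmp8-/- mice, and 4 rose and 2 fell in Mmp8+/+ mice. Of 13 neutrophil markers 3 rose in each genotype, with 0 lower in Mmp8-/- and 2 lower in Mmp8+/+ mice, and the share in Mmp8-/- mice was close to that of all features. The mean of 13 keratinocyte markers, a cell type rich in Serpinb2, was 7.01 to 7.26 on the arthritic Mmp8-/- arrays and 7.82 to 8.56 on the arthritic Mmp8+/+ arrays, against 7.07 to 8.46 in mice labelled Mmp8-/- control and 7.24 to 8.37 in Mmp8+/+ controls. Of the 12 keratinocyte markers tested, 2 fell in Mmp8-/- and 0 in Mmp8+/+ mice, while Serpinb2 was lower on the arthritic arrays of both. The part of these cells in the values of Plau, Plaur, Serpinb2 and Serpina3n was not tested.

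Endothelial markers, from a cell type that makes Thbd and Plat, had smaller changes than Thbd. The mean of 14 of them was 8.69 to 8.96 on the arthritic Mmp8-/- arrays and 8.84 to 8.99 on the arthritic Mmp8+/+ arrays, against 9.01 to 9.25 in mice labelled Mmp8-/- control and 8.84 to 9.10 in Mmp8+/+ controls. Of the 14, 4 fell and 0 rose in Mmp8-/- mice, and 1 fell and 1 rose in Mmp8+/+ mice. Their median log2 fold change was -0.34 in Mmp8-/- and -0.03 in Mmp8+/+ mice, whereas Thbd changed by -1.22 and -0.98. Of 5 lymphatic endothelial markers 4 fell in each genotype, with medians of -0.79 and -0.89. Adipocyte markers fell in 8 of 8 in each genotype, skeletal muscle markers in 6 of 10 in Mmp8-/- and 9 of 10 in Mmp8+/+ mice, smooth muscle markers in 5 and 4 of 8, and platelet markers in 3 and 5 of 7. Osteoblast and osteocyte markers fell in 4 and 5 of 7, Schwann cell markers in 3 and 4 of 5 and erythroid markers in 1 and 3 of 4, while 2 of 8 osteoclast markers rose in each genotype. Of 14 fibroblast and synovial markers 2 rose and 4 fell in Mmp8-/- mice, and 4 rose and 1 fell in Mmp8+/+ mice. Chondrocyte markers rose in 2 of 10 in each genotype and fell in 2 and 0, and of 6 mast cell markers 1 rose and 1 fell in each. The part of these cell types in the lower values of Thbd, F3 and Plat was not tested.

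The genes whose course over the 12 arrays was most like that of each member were found as those with the smallest root mean square difference between log2 values, each taken from its own mean. For Plau they were Gbx2, Trpm6 and Adamts1, with differences of 0.16, 0.16 and 0.17, where the values of Plau itself varied by 0.60 about their mean. Thbd was followed most closely by Dusp10, Klf9 and Ctnnal1 (0.17 each), and Serpinb2 by Plekhg1, Gstm1 and Sncaip (0.22, 0.22 and 0.23). The nearest genes of Serpina3n, Car6, Tll1 and Pla2g7, were less close, at 0.28, 0.28 and 0.29. F3 was matched by Rgs4, Snx32 and Zfp277 (0.16, 0.17 and 0.18), Plat by H2bc4, Eloa and Gpbp1 (0.16, 0.17 and 0.17) and Plaur by Ccdc160, Pde7a and Clns1a (0.08, 0.08 and 0.09). None of the 7 genes was among the nearest 3 of another.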

How the data were processed

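Total RNA of pulverised ankle joints was labelled and hybridised to Affymetrix Mouse Gene 1.0 ST arrays, 1 per mouse. The authors deposited log2 values for 28853 features on 12 arrays, normalised with the Robust Multichip Average method (RMA), which corrects background, makes the arrays' distributions alike and summarises probes. RMA compresses low signals and cannot be repeated from these values, and the array's genome build is not given in the sources used here. All 12 value columns were used and 0 were left out.

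Features were named from the platform annotation, which gave 1 symbol for 21789, several for 1621 and none for 5443, and 21698 of the single symbols were found in RefSeq (GRCm38.p6), from which gene positions were taken. Group means were fitted with limma 3.58.1 in R 4.3.3 over all 12 arrays, with moderated variances and no covariate, and p-values are two-sided and adjusted by Benjamini-Hochberg over 18479 features. The median signal of an array was 6.74 to 6.82, and precision is limited by 3 arrays a group. The fit was tested on simulated data.

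The genes, the 4 pathway lists and the 16 cell type lists were chosen with earlier results of these data known. Named from a pathway list were up to 4 genes with the largest average change among those passing in both genotypes in 1 direction, and Plg. For each member the 3 genes with the nearest course were named. Alternatives were ordinary linear regression, limma on the compared groups alone, array weights, an intensity trend with robust variances, omission of the signal filter, use of every feature, subtraction of each array's mean, an FDR of 1%, and leaving out each array or the doubtful arrays. Counts of the pathway lists and Plg without the doubtful arrays were added after seeing the data. Values of other single genes of these lists are not given without those arrays.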

Additional observations from a re-analysis of the deposited data

How the results depend on the processing

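No paired analysis was made, since each array came from a different mouse and the labels give no pairs. The labels number no replicates either, and the replicate numbers used here follow the order of the array names within each group. Over 22 alternative settings, with limma on compared groups alone left out where the comparison spans all 4 groups, 837 of 910 values of the 7 genes kept their direction and their side of the threshold, 20 lost a call, 7 gained one and 46 changed sign, every sign change in a comparison of genotypes or an interaction, with no call. An FDR of 1% left 2 genes passing in Mmp8+/+ mice (Plau and Thbd), and without the 3 doubtful arrays 1 passed in Mmp8-/- mice (Plau). Leaving out 1 array gave 3 to 5 genes in Mmp8-/- mice, with 5 without arthritic Mmp8-/- replicate 3. It gave 3 to 4 in Mmp8+/+ mice and 5 to 7 on average. The shares of all features are not given for an FDR of 1% or for single arrays left out. The counts in those settings are therefore not compared with the whole array. Ordinary regression ended the calls of Serpina3n in Mmp8+/+ mice (adjusted p = 0.108) and of F3 on average (adjusted p = 0.0698) and added Plaur in Mmp8-/- mice (adjusted p = 0.0402), and testing every feature ended that of Serpina3n in Mmp8+/+ mice (adjusted p = 0.053).

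Between mice labelled Mmp8-/- control and Mmp8+/+ controls, Plau was -0.0198 without the arrays with Xist signal and -0.22 without the 3 doubtful arrays, which also gave 0.0921 for Plaur, -0.32 for Serpina3n and -0.14 for Thbd, and interactions of -0.10 for Plaur, 0.15 for Serpina3n and 0.11 for Thbd. Array weights gave Plat 0.11 in arthritic and -0.11 in control mice and an interaction of 0.22, and subtracting array means gave F3 an interaction of -0.0004. With 1 array left out, differences of arthritic Mmp8-/- from arthritic Mmp8+/+ mice ran from -0.24 to 0.29 for Plat, -0.0938 to 0.0688 for Plaur, -0.42 to 0.10 for Serpina3n, -0.38 to 0.19 for F3 and -0.14 to 0.0628 for Thbd. Those between controls ran from -0.0813 to 0.12 for Plau, -0.17 to 0.34 for Plat, -0.16 to 0.34 for Serpinb2, -0.17 to 0.50 for Serpina3n and -0.40 to 0.14 for F3. Interactions ran from -0.36 to 0.25 for Plat, -0.67 to 0.0021 for Serpina3n and -0.26 to 0.31 for F3. The causes were not tested.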
